A study of Sus scrofa with 41 samples.

Results

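The 8 kelch-like genes described here are KLHL30, KLHL31, KLHL33, KLHL34, KLHL40, KLHL41, KLHL21 and KLHL24. They were taken by their pig gene symbols. KLHL30 was chosen by its slope on the feed conversion ratio (FCR) of the Duroc pigs, and the others as kelch-like genes known from muscle. The tables hold 25880 genes, of which 14857 could be given a symbol, and 7 of the 8 genes were found. KLHL41 could not be matched by its identifier and was not analysed here. The samples were psoas major muscle, a muscle of the loin, from 41 uncastrated male pigs, of which 13 were Danbred Duroc and 28 were Danbred Landrace, with 1 library of poly(A) RNA per pig. All pigs had free access to feed until slaughter weight. There was no treatment, so each comparison is across pigs as they were, and no pig was measured more than once. FCR is the feed eaten per unit of weight gained, so a low value marks an efficient pig.

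FCR ranged from 1.83 to 2.18 in the Duroc pigs, with a median of 1.94, and from 1.92 to 2.25 in the Landrace pigs, with a median of 2.10. Age at sampling was 147 ± 7.19 days (SD, n = 13) in Duroc and 155 ± 4.75 days (SD, n = 28) in Landrace. The RNA integrity number (RIN), a score of how intact the RNA was, was 8.12 ± 0.426 (SD) and 7.84 ± 0.496 (SD), with 6.5 as the lowest value. The labels put the pigs in 5 batches, which the study used to account for different slaughter days. Batch 1 was a single Duroc pig, and batches 2 to 5 held 3, 2, 3 and 4 Duroc pigs beside 12, 7, 2 and 7 Landrace pigs. The libraries held 22188911 to 25954816 counts on genes. No pair of libraries was a copy, as the lowest chi-squared per degree of freedom among 820 pairs was 17.2.

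Kelch-like proteins are the substrate adaptors of a family of ubiquitin ligases. A BTB domain binds the scaffold CUL3, the kelch repeats bind the protein to be marked, and CUL3 is switched on when NEDD8 is attached to it. In skeletal muscle several of these adaptors help to keep the sarcomere in order. KLHL40 and KLHL41 hold the thin filament in place, KLHL40 through nebulin and leiomodin, and loss of either gives nemaline myopathy in people. KLHL31 acts on filamin C, and mice without it have a myopathy. KLHL21 serves in cell division by acting on the kinase AURKB, and KLHL24 is known from skin and heart, where it acts on the intermediate filaments KRT14 and DES. KLHL30, KLHL33 and KLHL34 are much less studied.

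The 7 genes sit on 5 chromosomes of Sscrofa11.1 by the RefSeq annotation. KLHL30 is at chr15:137709315-137721806, KLHL31 at chr7:27088393-27106104 and KLHL33 at chr7:78470250-78479963. KLHL34 is at chrX:17838070-17841718, and CNKSR2, a scaffold protein of neurons, ends 35 bases before it. KLHL40 is at chr13:26202607-26211528 and shares 2132 bases with HHATL, a membrane protein of striated muscle. KLHL21 at chr6:67420618-67434812 shares 25 bases with LOC106507613, and KLHL24 is at chr13:121564833-121608146. The Ensembl models used for counting were not used here. These neighbours matter for the counts because the libraries did not keep the strand.

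The deposited tables give, for each gene, a count that ignores strand and a count for each strand. A read pair over 2 genes on opposite strands is left out of the first and is held by both genes in the others. For KLHL30, KLHL33 and KLHL24 the unstranded count equalled the sum of the stranded counts in every pig, and for KLHL31 the 2 differed by at most 1 count. KLHL34 kept a median of 34.6% of that sum (17.8% to 41.5%), KLHL40 kept 52.8% (26.8% to 57.1%) and KLHL21 kept 81.6% (44.4% to 85.2%). Of 11907 genes with enough counts, 13.6% kept under 90%. The counts missing from KLHL34 equalled those missing from CNKSR2 in 41 of 41 pigs, from 34 to 460 counts per pig. The counts missing from KLHL40 equalled those missing from HHATL in 37 of 41 pigs. The results below use the unstranded counts, as the study did, and the sum is given where it changes a call.

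Levels are given as CPM, the count scaled to the size of the library after TMM normalization. Because gene lengths were not used, a level is compared between pigs and never between genes. KLHL30 was at 17.4 to 84.6 CPM in the Duroc pigs, with a median of 53.9, and at 18.2 to 115 CPM in the Landrace pigs, with a median of 43.9. KLHL31 was the steadiest. Its lowest, median and highest Duroc values were 520, 579 and 680 CPM, beside Landrace values of 416, 565 and 732. For KLHL33 they were 34.5, 68.5 and 85.4 CPM, beside 41.5, 73.3 and 123. In all 3 genes the ranges of the breeds overlapped over most of their length.

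KLHL34 was the gene with the fewest counts, at 8 to 272 per pig. Its lowest, median and highest Duroc values were 1.14, 5.65 and 9.53 CPM, beside 0.56, 2.96 and 9.59 among the Landrace pigs. For KLHL40 they were 10.3, 41.0 and 104 CPM, beside 5.49, 23.9 and 48.1. The highest KLHL40 value belonged to the single pig of batch 1, and 4 other Duroc pigs were above every Landrace pig. The Duroc values of KLHL21 were 24.3, 53.3 and 70.3 CPM, beside Landrace values of 25.3, 51.4 and 95.98. Those of KLHL24 were 41.6, 52.1 and 90.6 CPM, beside 27.3, 55.0 and 84.4. For KLHL21 6 Landrace pigs lay above every Duroc pig, and for both genes most pigs of the breeds overlapped.

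**Figure D1:**
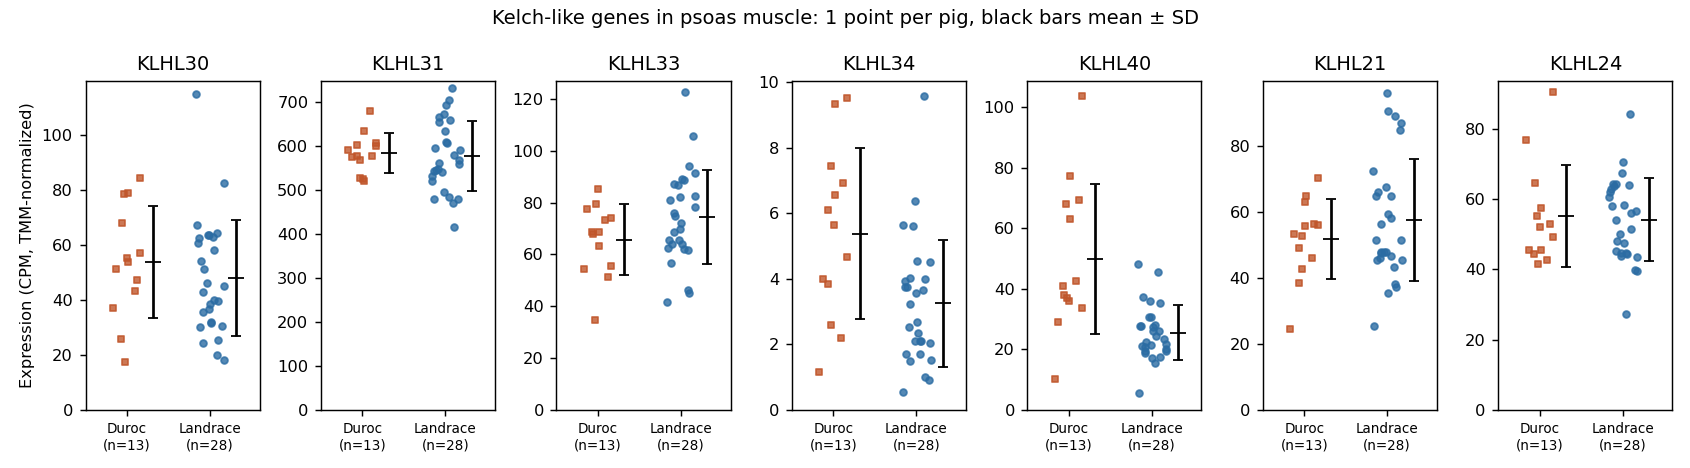
Expression of the 7 measured kelch-like genes in each pig (y axis, CPM after TMM normalization; 1 panel per gene with its own axis from 0), by breed. Points are pigs, and black bars give the mean ± SD. KLHL34 (5.38 ± 2.62 against 3.25 ± 1.95 CPM) and KLHL40 (49.9 ± 24.9 against 25.5 ± 9.03 CPM) show the lower Landrace values, and the ranges of the breeds overlap in every panel.

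The genes differed in how much they varied between pigs that were alike in breed, batch, RIN, age and FCR. This biological coefficient of variation was 38.4% for KLHL30, above 92.9% of the 11146 genes tested. KLHL40 (33.3%), KLHL34 (33.1%) and KLHL21 (26.4%) also stood high, against a median of 17.0% over all genes. KLHL31 varied by 12.3%, less than most genes, while KLHL24 (21.2%) and KLHL33 (20.5%) lay between. From the lowest to the highest pig KLHL30 spanned a 6.61-fold range, and KLHL31 spanned 1.76-fold.

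The study asked which genes of the muscle follow feed efficiency. In the 13 Duroc pigs, the contrast from which KLHL30 was chosen, its level fell by 0.37 on the log2 scale per 0.1 of FCR (SE 0.089, DESeq2, with RIN, age and batch in the model). This slope is given as a description, with no test. The model leaves 5 residual degrees of freedom. When each Duroc pig was left out in turn, the slope lay between -0.45 and -0.34. It was -0.33 with batch out of the model and -0.35 with age out of the model.

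The Duroc pigs with the highest FCR, 2.11 and 2.18, had the lowest KLHL30, at 25.6 and 17.4 CPM. The 3 highest values, 84.6, 79.0 and 78.7 CPM, were in pigs with an FCR of 1.90, 1.89 and 1.94. The order did not hold at the low end of FCR, as the pigs at 1.83 and 1.85 had 43.1 and 36.9 CPM. These 2 pigs and the 2 at 2.11 and 2.18 made up the Duroc pigs of batch 5, whose mean was 30.8 ± 11.5 CPM (SD, n = 4). These 4 pigs were also the oldest Duroc pigs, at 154 to 156 days against 131 to 150 days in the others. Batch 5 and high age thus cannot be told apart in Duroc. The Duroc means were 58.2, 67.9 and 60.0 CPM in batches 2, 3 and 4. Among the Duroc pigs KLHL30 fell with FCR within batches 2, 3 and 5 but not within batch 4. There it was 79.0, 47.2 and 53.9 CPM at an FCR of 1.89, 1.93 and 1.98. KLHL30 was chosen from these same pigs, so their order is a description and no support for the slope.

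None of the other 6 genes had such a slope in Duroc. KLHL30 was chosen by this slope and the other 6 were not, so the choice itself set this contrast. KLHL31 had a slope of -0.042 per 0.1 of FCR (SE 0.072) and KLHL24 of -0.013 (SE 0.10). The slopes were 0.058 for KLHL33 (SE 0.11), 0.11 for KLHL34 (SE 0.15), 0.063 for KLHL40 (SE 0.11) and 0.024 for KLHL21 (SE 0.094). Each was within its own standard error of 0. For each of the 6, leaving out some single Duroc pig turned the sign. Without the pig at FCR 1.83 the slope of KLHL33 was 0.25, and without the pig at FCR 2.18 that of KLHL40 was -0.18.

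The Landrace pigs did not enter the choice of KLHL30, so their slopes could be tested. None of the 7 genes was called at an FDR under 0.1 with DESeq2, and 0.0368% of the 10874 genes tested were called. For KLHL30 the slope was 0.16 per 0.1 of FCR (SE 0.15, 95% interval -0.13 to 0.46, FDR 1.00). The highest Landrace value, 115 CPM, came from the pig with the highest FCR, 2.25, while the 2 pigs at 2.22 had 35.7 and 19.8 CPM. Thus the Landrace pigs of high FCR held both high and low KLHL30.

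KLHL34 and KLHL33 had the largest Landrace slopes for their errors. KLHL34 had a slope of 0.37 per 0.1 of FCR (SE 0.13, unadjusted p = 0.00586 and FDR 0.521 with DESeq2). KLHL33 had a slope of -0.19 (SE 0.070, unadjusted p = 0.00627 and FDR 0.521 with DESeq2). Both failed the correction over all genes, of which 642 had an unadjusted p under 0.05. The FDR of the 2 genes was 0.207 and 0.223 without the Landrace pigs of RIN under 7, and up to 0.829 under other settings. The other 4 genes had slopes of -0.066 to 0.095 with intervals that held 0. edgeR and limma called none of the 7 either.

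Over both breeds the edgeR slope of KLHL30 was 0.038 per 0.1 of FCR (SE 0.11), given as a description since it holds the Duroc pigs. The joint slope was 0.24 for KLHL34 (SE 0.10) and -0.10 for KLHL33 (SE 0.058).

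**Figure D2:**
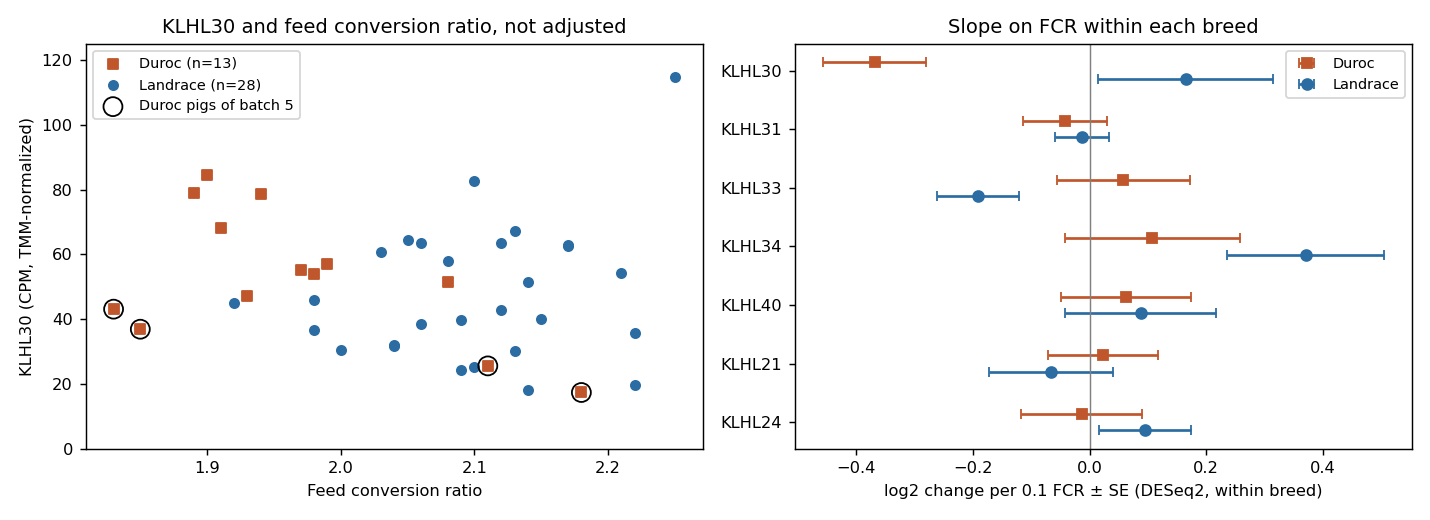
Left, KLHL30 (y axis, CPM) against the feed conversion ratio (x axis) in each pig, not adjusted, with the 4 Duroc pigs of batch 5 circled. Right, slopes of the 7 genes as the log2 change per 0.1 of FCR with SE bars (x axis) in each breed. KLHL30 has a slope of -0.37 in Duroc and 0.16 in Landrace, and the circled pigs take up both ends of the Duroc FCR range.

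The second comparison was between breeds, in one edgeR model over all 41 pigs with FCR, RIN, age and batch. Of the 7 genes, 2 passed an FDR of 0.1, and 33.1% of the 11146 genes tested did, so the share was no higher than the background. KLHL21 was higher in Landrace and KLHL34 was lower. KLHL40 had the widest gap between the breed means but did not pass.

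The mean of KLHL34 was 5.38 ± 2.62 CPM over the Duroc pigs (SD, n = 13) and 3.25 ± 1.95 over the Landrace pigs (SD, n = 28). In the model it was lower in Landrace by a log2 change of -0.66 (SE 0.26, edgeR FDR 0.0566). The log2 ratio of the means was below 0 in each of the 4 batches that held both breeds, at -0.85, -0.18, -0.87 and -0.71 in batches 2 to 5. The call was lost without batch 2 (FDR 0.111), batch 4 (0.119) or batch 5 (0.206) and with batch as a number (0.138). With the sum of the stranded counts the change was -0.62 (FDR 0.0782).

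The mean of KLHL21 was 51.7 ± 12.1 CPM over the Duroc pigs (SD, n = 13) and 57.6 ± 18.5 over the Landrace pigs (SD, n = 28), so the plain means lay close together. The model put it higher in Landrace by a log2 change of 0.60 (SE 0.20, edgeR FDR 0.0240). Within batches the log2 ratio was 0.19, -0.41, 0.10 and 0.72 in batches 2 to 5, so its sign was not the same in all. Without batch 5 the change was 0.32 (FDR 0.407), without batch 2 it was 0.66 (FDR 0.148), and with age left out it was 0.38 (FDR 0.124). In batch 5 the Duroc pigs were at 37.8 ± 9.55 CPM and the Landrace pigs at 62.3 ± 21.9 CPM.

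The mean of KLHL40 was 49.9 ± 24.9 CPM over the Duroc pigs and 25.5 ± 9.03 over the Landrace pigs. Its log2 ratio was -0.37, -0.99, -0.91 and -0.66 in batches 2 to 5, lower in Landrace in all 4. In the full model the change was -0.39 (SE 0.25, edgeR FDR 0.273). With age left out it was -0.63 (FDR 0.0382), and the Landrace pigs were the older. The breed and the age of these pigs can be told apart only as far as their ages overlap.

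KLHL30 had a breed change of 0.40 (FDR 0.364), KLHL33 of 0.25 (FDR 0.229), KLHL31 of 0.16 (FDR 0.182) and KLHL24 of -0.040 (FDR 0.891). The KLHL33 difference passed with age left out (0.31, FDR 0.0786). The KLHL30 change was 0.015 with age left out, 0.050 without batch 5 and 0.77 without batch 2 (FDR 0.252 to 0.976). Its sign was set by the model, as its plain Duroc mean was 53.7 ± 20.4 CPM and its Landrace mean 48.0 ± 21.1. Its log2 ratio was -0.41 and -0.56 in batches 2 and 3 and 0.29 and 0.69 in batches 4 and 5.

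Scaling by library size alone moved the median breed change of all genes from -0.0024 to -0.18, and the higher share of the called genes from 47.0% to 12.9%. The KLHL21 call was lost there (0.43, FDR 0.124) and KLHL34 was kept (-0.86, FDR 0.0184). Cell markers also differed between the breeds. The summed level of the 2 satellite cell markers ranged from 3.58 to 12.03 CPM among Duroc pigs and from 1.33 to 7.72 among Landrace pigs (permutation test, two-sided, adjusted p = 0.0014 over 10 lists). The 3 endothelial markers summed to 47.8 to 145 CPM and 27.2 to 121 CPM (adjusted p = 0.0159, permutation). The 6 fast fibre markers summed to 34845 to 59286 CPM and 24989 to 80476 CPM (adjusted p = 0.0648, permutation). Smooth muscle markers had a Duroc mean of 76.7 CPM and a Landrace mean of 51.3, and skeletal muscle fibre markers 131576 and 146140 (adjusted p = 0.0668 each, permutation). The other 5 lists had an adjusted p of 0.327 to 0.781 (permutation). These sums were not adjusted for RIN, age, FCR or batch. In the edgeR model 2 of 6 slow fibre markers (median -0.62), 1 of 2 tested adipocyte markers (median -1.21) and 1 of 4 fibroblast markers (median -0.93) were called lower in Landrace and none higher, whereas the plain mean of the sums was higher in Landrace for adipocyte (42.5 against 30.8 CPM) and fibroblast markers (1755 against 1558 CPM). No marker was at 0 in all pigs, and the 4 fibre markers, among them ACTA1 and NEB, summed to at least 107459 CPM in every pig. In bulk muscle, fewer cells of a type and less RNA per cell cannot be told apart, and the part of these cells in the breed results was not tested.

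The third comparison was with RNA integrity. With the other terms in the model, 4 of 7 genes rose with RIN and none fell, while 51.8% of all genes were called and 23.9% were called as higher. KLHL31, the filamin C adaptor, rose by 0.23 on the log2 scale per unit of RIN (SE 0.067, edgeR FDR 0.00481). KLHL21 rose by 0.46 (SE 0.16, FDR 0.0198), KLHL33 by 0.29 (SE 0.12, FDR 0.0515) and KLHL40 by 0.39 (SE 0.18, FDR 0.0862). KLHL34 had a slope of 0.29 (SE 0.20, FDR 0.243), KLHL24 of -0.13 (FDR 0.399) and KLHL30 of 0.0088 (FDR 0.978). KLHL30, the gene with the most spread, was thus the one whose slope on RIN was nearest to 0.

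The 3 pigs with the poorest RNA did not stand alike in all genes. The RIN was 6.5 in a Landrace pig of batch 2, 6.6 in a Landrace pig of batch 5 and 7.0 in a Duroc pig of batch 5. KLHL31 was at 416 CPM in the first of them, the lowest of all pigs, and at 533 and 592 CPM in the others. KLHL40 was at 35.4 CPM in the first and at 5.49 and 10.3 CPM in the others, the lowest values of their breeds. KLHL21 was lowest in the same 2 pigs of batch 5, at 25.3 and 24.3 CPM. KLHL34 had the lowest value of each breed there too, at 0.56 and 1.14 CPM, against 4.00 CPM in the pig of batch 2.

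Without the 2 pigs of RIN under 7 the count became 2 of 7. KLHL40 (0.78, FDR 0.00859) and KLHL34 (0.61, FDR 0.0862) then passed, while KLHL31 (0.18, FDR 0.135), KLHL21 (0.26, FDR 0.380) and KLHL33 (0.13, FDR 0.572) did not. Without batch 5 KLHL21 alone passed (0.45, FDR 0.0776), and KLHL40 had a slope of 0.0087 (FDR 0.979). Without batch 2 only KLHL40 (0.98, FDR 0.0112) and KLHL34 (0.80, FDR 0.0263) passed. KLHL40 also lost its call without batch 4 (FDR 0.107) and with age left out (FDR 0.142), and KLHL33 with batch as a number (FDR 0.401). KLHL34 passed with batch as a number (0.62, FDR 0.0676). It also passed with library size only (0.59, or 0.29 relative to the median of all genes, FDR 0.0195). Within batches 2, 3 and 5, with 15, 9 and 11 pigs, the correlation of log2 CPM with RIN was -0.12, 0.26 and 0.86 for KLHL40 and -0.023, 0.064 and 0.87 for KLHL34. It was 0.59, 0.13 and 0.71 for KLHL31, 0.49, 0.041 and 0.36 for KLHL21, and 0.56, -0.036 and 0.21 for KLHL33. KLHL40 and KLHL34 followed RIN in batch 5 and hardly in the others.

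**Figure D3:**
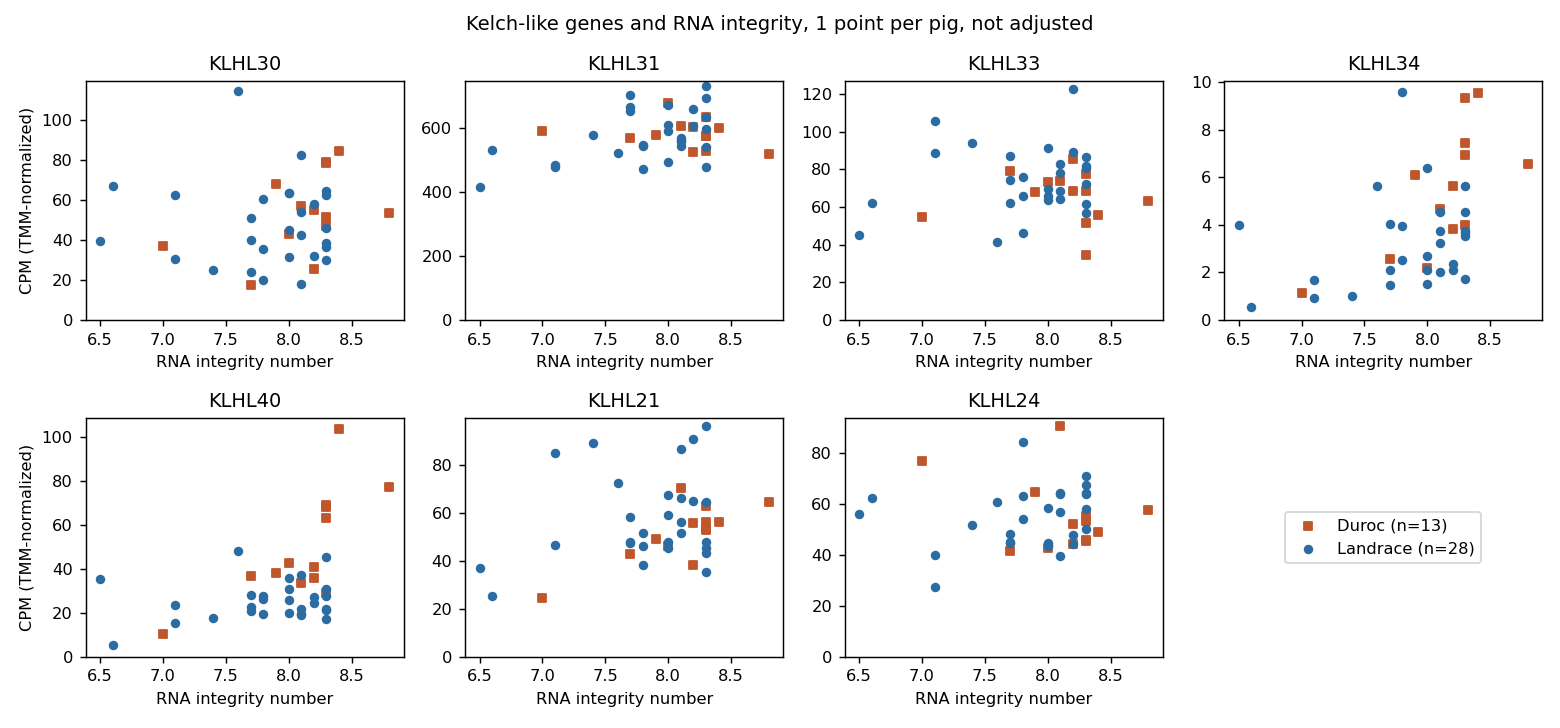
Expression of each gene (y axis, CPM from 0) against the RNA integrity number (x axis), 1 point per pig, not adjusted. KLHL40 and KLHL21 are lowest in the batch 5 pigs of RIN 6.6 and 7.0, and KLHL30 shows no such order.

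The gap between the count columns moved with RIN as well. The share of the stranded sum held by the unstranded count was correlated with RIN over 41 pigs for KLHL21 (r = 0.75, rho = 0.73), KLHL34 (r = 0.71, rho = 0.54) and KLHL40 (r = 0.67, rho = 0.43). The adjusted p over the 3 genes was at most 7e-05 for r and at most 0.00448 for rho (permutation test, two-sided). Without the 2 pigs farthest from the median RIN, r was 0.66, 0.53 and 0.52 in the same order. Within batches 2, 3 and 5 it was 0.89, 0.59 and 0.73 for KLHL21, 0.71, 0.37 and 0.63 for KLHL34, and 0.74, 0.37 and 0.73 for KLHL40. For KLHL40 the share was 27.7% and 26.8% in the batch 5 pigs of RIN 6.6 and 7.0, and 43.3% in the batch 2 pig of RIN 6.5.

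With the sum in place of the unstranded count, the slope on RIN was 0.28 for KLHL21 (FDR 0.104), 0.22 for KLHL40 (FDR 0.226) and 0.067 for KLHL34 (FDR 0.790). The calls of KLHL21 and KLHL40 were lost. KLHL31 (0.31, FDR 0.000377) and KLHL33 (0.36, FDR 0.0170), whose counts differed by at most 1 between the columns, kept theirs. The sum can hold pairs of a neighbour as well.

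**Figure D4:**
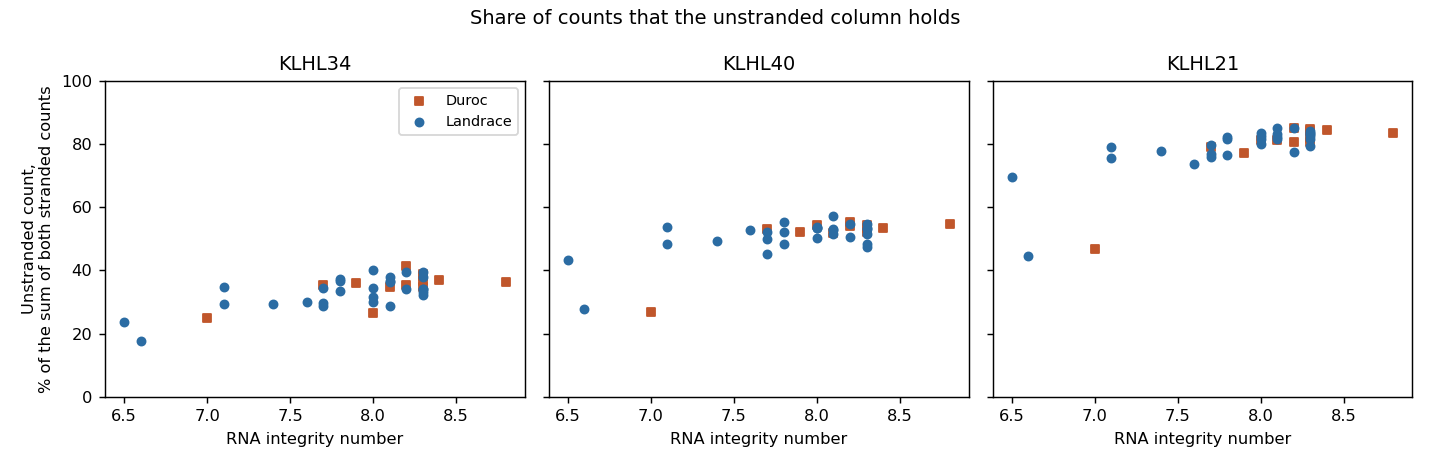
Unstranded count as a percentage of the sum of both stranded counts (y axis) against RIN (x axis) for the 3 genes whose unstranded count was below the sum in every pig, 1 point per pig. The share is lowest in the pigs of low RIN, at 17.8% for KLHL34, 26.8% for KLHL40 and 44.4% for KLHL21.

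Scaling by library size alone moved the median RIN slope of all genes from -0.010 to 0.30, and the higher share of the called genes from 46.2% to 87.6%. The slope of KLHL24 then turned to 0.19 (FDR 0.152), and relative to that median it was -0.10, close to the -0.12 under TMM. The summed level of the fast fibre markers was correlated with RIN as well (r = -0.60, rho = -0.54; adjusted p = 5e-04 for r, permutation). Its r was -0.66, -0.15 and -0.68 within batches 2, 3 and 5 and -0.47 without 2 pigs. The slow fibre and the skeletal muscle fibre sums had r of -0.37 and -0.36 (adjusted p = 0.0733 each, permutation) and an adjusted p of 0.166 each by rho (permutation). The fibroblast sum had a rho of 0.40 (adjusted p = 0.0555, permutation) with an r of 0.22 (adjusted p = 0.272, permutation), and 2 of its 4 markers rose with RIN in the edgeR model (median slope 0.61). The satellite cell sum had a rho of 0.36 (adjusted p = 0.0758, permutation) with an r of 0.16 (adjusted p = 0.454, permutation). Of the 6 fast fibre markers 2 rose and 3 fell with RIN in the edgeR model, and of the 6 slow fibre markers 5 fell and none rose. The part of these cell types in the slopes was not tested.

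A slope on RIN that differed between the breeds was called for none of the 7 genes (edgeR, 0% of 11146 genes, of which 541 had an unadjusted p under 0.05). limma called none either. KLHL24 had the smallest p, with a Landrace slope higher by 0.58 (SE 0.23, unadjusted p = 0.0170 and FDR 0.947). Without the 2 pigs of RIN under 7 this difference was 0.90 (FDR 0.105), and that of KLHL21 moved from -0.47 to -0.87 (FDR 0.274). For KLHL40 the DESeq2 slope was 1.65 in Duroc (SE 0.35) and 0.23 in Landrace (SE 0.22), with an edgeR difference of -0.85 (SE 0.44, FDR 0.947).

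Batch was called for 3 of 7 genes, with 24.1% of all genes called. KLHL34 had the smallest p (edgeR FDR 0.00043). It was at 1.84 ± 0.924 CPM (SD, n = 11) in batch 5, from 0.56 to 3.83, against 3.37 ± 1.42 CPM (SD, n = 15) in batch 2, 5.49 ± 2.02 CPM (SD, n = 9) in batch 3 and 6.23 ± 2.40 CPM (SD, n = 5) in batch 4. Batches 3 and 5 overlapped little, as the lowest pig of batch 3 had 3.24 CPM. KLHL33 (FDR 0.0499) was highest in batch 5 at 80.1 ± 20.7 CPM and lowest among batches 2 to 5 in batch 4, at 57.8 ± 11.07 CPM. This order over both breeds held in Landrace, with means of 74.6, 68.5, 52.8 and 86.5 CPM in batches 2 to 5. It did not hold in Duroc, with means of 77.0, 54.2, 61.1 and 68.9 CPM. KLHL40 (FDR 0.0886) was at 28.0 ± 8.44, 31.2 ± 15.2, 56.7 ± 20.2 and 25.1 ± 12.2 CPM in batches 2 to 5, and its call was lost without a filter (FDR 0.130) and with library size alone (FDR 0.235). KLHL34 and KLHL33 were called under each of the 8 settings run. KLHL24 was not called (FDR 0.130), but passed with library size alone (FDR 0.0229) and with DESeq2 (FDR 0.0991).

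Age was called for none of the 7 genes with edgeR, against 1.76% of all genes. KLHL30 (unadjusted p = 0.0247, FDR 0.235) and KLHL21 (unadjusted p = 0.0423, FDR 0.294) had an unadjusted p under 0.05. KLHL30 had a change of -0.55 on the log2 scale per 10 days (SE 0.23), and KLHL21 of -0.34 (SE 0.16). DESeq2 and limma called none either.

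How the genes moved together was not used in their choice. Over the 21 pairs, r was computed across the 41 pigs from log2 CPM freed of RIN, age, breed and batch. The single pig of batch 1 was fitted exactly, so its adjusted values hold no information on the pairs. The permutations took no account of the fitted terms, so their p-values may be too small. By r a single pair passed, KLHL34 with KLHL40 (r = 0.61, adjusted p = 0.00063; rho = 0.57, adjusted p = 0.00525; permutation tests, two-sided). The correlation was 0.55 without the 2 pigs farthest from the median of KLHL34, and 0.53 and 0.63 within Duroc and Landrace. The 3 pigs of lowest RIN kept the most extreme adjusted KLHL40 values, 1.28, -1.30 and -1.03 at RIN 6.5, 6.6 and 7.0. Their adjusted KLHL34 values were 1.04, -0.87 and -0.61. The pigs of RIN 6.6 and 7.0 were not among the 2 left out, and r without all 3 was not computed. From values not adjusted it was 0.69, 0.56 and 0.85 within batches 2, 3 and 5. It was 0.55 with the sums of the stranded counts, and these 2 genes lie on different chromosomes.

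KLHL31 had negative correlations with the same pair, which passed by rho and not by r. By rho it was -0.43 with KLHL34 and -0.43 with KLHL40 (adjusted p = 0.0404 each, permutation), while by r it was -0.36 and -0.32 (adjusted p = 0.129 and 0.155, permutation). From values not adjusted r was -0.12 with KLHL34 and 0.013 with KLHL40 over all pigs. In the same order it was -0.32 and -0.097 within batch 2, and -0.65 and -0.49 within batch 3. Within batch 5 it was 0.52 and 0.47. All 3 genes followed RIN in batch 5, and the part of RIN in these values was not tested. Within batches r was computed only from values not adjusted. KLHL30 had r of -0.12 to 0.21 with the other 6, none past the threshold. Of the 21 pairs, 12 had a negative r, and the median r was -0.075.

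**Figure D5:**
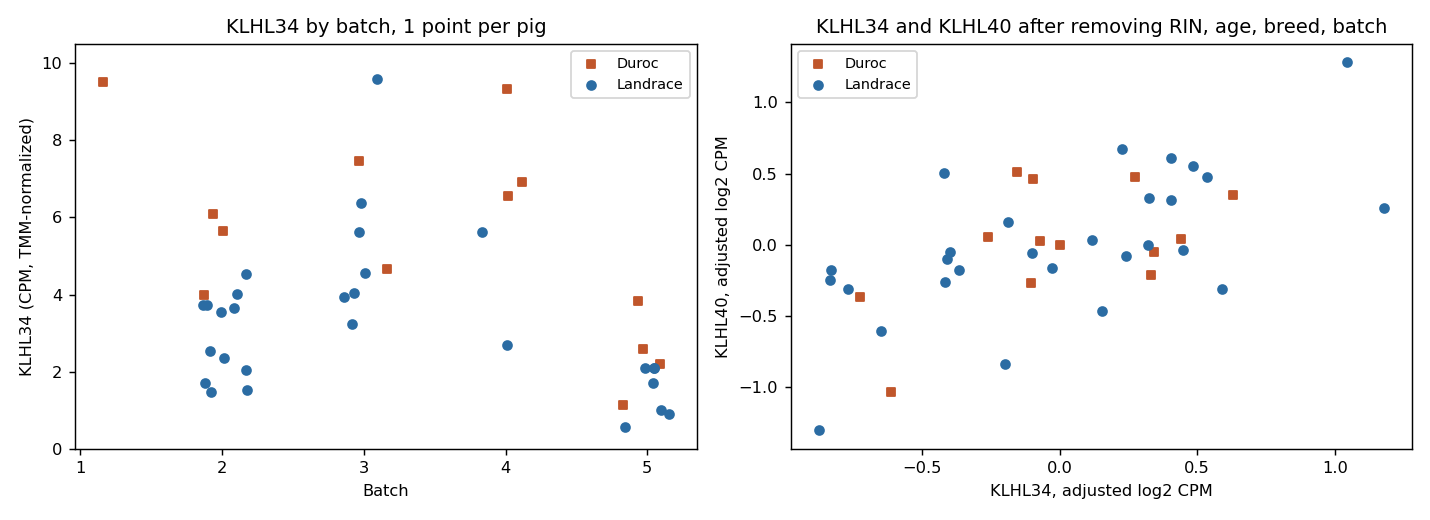
Left, KLHL34 (y axis, CPM) by batch (x axis), 1 point per pig with a small sideways shift. Right, KLHL40 (y axis) against KLHL34 (x axis) as log2 CPM after RIN, age, breed and batch were removed. Batch 5 is lowest for KLHL34 at 1.84 ± 0.924 CPM, and the 2 genes have r = 0.61 over 41 pigs.

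The genes whose adjusted log2 CPM over the 41 pigs was most like that of KLHL30 were EIF2D (r = 0.74), a translation initiation factor, and TBL3 (r = 0.73), which serves in ribosome making. DAXX (r = 0.73), a histone chaperone, ZFAND2A (r = 0.71), a zinc finger protein of the stress response, and FBXO31 (r = 0.71) followed. FBXO31 is the substrate adaptor of another kind of ubiquitin ligase. For FBXO31 the r was 0.74 in Duroc and 0.70 in Landrace, and for EIF2D it was 0.49 and 0.81. Over all 11145 other genes the middle 50% of r lay from -0.19 to 0.19 for KLHL30, and these are the highest of that many values, given as a description.

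SDCBP, the scaffold protein syntenin, was most like KLHL40 (r = 0.84, with 0.87 in Duroc and 0.83 in Landrace), ahead of LRRC59 (r = 0.75). For KLHL34 the nearest were GPAT4 (r = 0.73), an enzyme of lipid synthesis, TRAPPC9 (r = 0.69) and CNKSR2 (r = 0.69). CNKSR2 is the neighbour named above, and the unstranded counts used here leave out the pairs that lie over both genes. For KLHL31 they were TM2D2 (r = 0.71) and CSE1L (r = 0.67), for KLHL33 SEPHS1 (r = 0.70), GRID2IP (r = 0.68) and CTCF (r = 0.67), for KLHL21 SMCR8 (r = 0.78), POLR1A (r = 0.78) and WIZ (r = 0.77), and for KLHL24 GAPVD1 (r = 0.69) and NIPBL (r = 0.69). A gene without a symbol was among the nearest 3 of KLHL31, KLHL40 and KLHL24.

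Among the reported partners of these adaptors 7 of 9 were measured. NEB, the nebulin held by KLHL40, had a Duroc mean of 6361 ± 1511 CPM and a Landrace mean of 7277 ± 1273. It was higher in Landrace by 0.36 (SE 0.10, edgeR FDR 0.00853) and with RIN by 0.49 per unit (FDR 9.1e-06). AURKB, the kinase on which KLHL21 acts, was lower in Landrace by a change of -0.62 (SE 0.23, FDR 0.0424), though its plain means were 0.681 ± 0.268 and 0.660 ± 0.254 CPM. This rests on few counts, as AURKB was at 0.124 to 1.37 CPM among the Landrace pigs. DES, on which KLHL24 acts, fell with RIN by 0.35 (SE 0.083, FDR 0.000954). FLNC, NRAP, TFDP1 and IKBKB passed neither test, with breed changes of 0.24, 0.17, -0.075 and -0.17. The plain means, Duroc first, went the other way for FLNC (2954 and 2566 CPM) and NRAP (1616 and 1294 CPM). They went the same way for TFDP1 (20.2 and 15.7 CPM) and IKBKB (9.08 and 6.88 CPM).

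Of the CUL3 ligase and the NEDD8 pathway 20 genes were tested. With breed, 10 were higher in Landrace and none lower (median change 0.21). Of all genes 15.6% were called as higher and 17.5% as lower. COPS5 (0.40, FDR 4.7e-05) and COPS4 (0.36, FDR 0.000102), subunits of the complex that takes NEDD8 off, were among them. CUL3 itself had a change of 0.10 (FDR 0.363) and its partner RBX1 of 0.16 (FDR 0.142). With RIN, 6 rose and 8 fell (median slope -0.036), beside 23.9% and 27.9% of all genes. CUL3 rose by 0.37 per unit (SE 0.063, FDR 1.2e-05), while RBX1 (-0.38, SE 0.059, FDR 3.9e-06) and NEDD8 (-0.50, SE 0.080, FDR 6.3e-06) fell.

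Of 33 other kelch genes tested, 9 were higher and 5 lower in Landrace (42.4%), and 9 rose and 2 fell with RIN (33.3%). Of all genes 33.1% were called for breed and 51.8% for RIN. KLHL7 (0.68, FDR 0.000114) and KLHL23 (0.71, FDR 0.000228) had the smallest p for breed. The Duroc mean of KLHL23 was 16.7 ± 3.00 CPM and its Landrace mean 26.7 ± 5.00. Among the lower ones were KBTBD13, KLHL13, KLHL42 and KLHL12, with changes of -1.16, -0.68, -0.53 and -0.33. With RIN, KLHL9 (0.74, FDR 8.0e-05) had the smallest p among those that rose, and KLHL36 (-0.45, FDR 3.0e-05) and KEAP1 (-0.16, FDR 0.0198) fell. KLHL13, KLHL42, KLHL12 and KEAP1 were named after their values were seen.

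Of 7 other nemaline myopathy genes, 3 were higher and 1 lower in Landrace, and 1 rose and 3 fell with RIN. With 57.1% called each time, the list stood beside 33.1% of all genes for breed and 51.8% for RIN. TNNT3, the fast troponin T, was higher in Landrace by 0.60 (SE 0.13, FDR 0.00108) and fell with RIN by 0.50 (FDR 4.7e-05). KBTBD13, a kelch adaptor of the thin filament, was lower in Landrace by a change of -1.16 (SE 0.30, FDR 0.0048), with means of 2.40 ± 1.34 CPM and 1.35 ± 0.811 in the 2 breeds (Duroc first). TPM2, a tropomyosin, fell with RIN by 0.48 (FDR 3.4e-06). The others called were ACTA1 (0.38) and MYPN (0.30) with breed and MYPN (0.36) and TNNT1 (-0.72) with RIN, named after their values were seen. Calls in both directions were thus found with breed and with RIN.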

How the data were processed

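Whole counts per gene were deposited by the authors for psoas major muscle of 41 pigs. Their notes name Trimmomatic 0.39 for trimming and STAR 2.7.1a for alignment to Sscrofa11.1 and for counting pairs on Ensembl genes, with no normalization. The unstranded column was used, and the stranded columns served only for the shares and for an alternative chosen after seeing the data.

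The kelch-like genes, partner lists and marker lists were chosen with earlier results of these data known. Lists were read against the share of all genes called. Genes were named by a rule, apart from those said to be named after their values were seen: the 8 kelch-like genes, all partners, CUL3 and RBX1, the 2 smallest p per list for breed and for RIN, and the genes of highest r (5 for KLHL30, 3 for each other).

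Breed, RIN, age, batch and RIN by breed were tested with the quasi-likelihood test of edgeR 4.0.16 (R 4.3.3, TMM, filterByExpr, batch as a factor of 5 levels, FCR in the model). FCR within a breed was fitted with DESeq2 1.42.0 on genes with at least 5 counts in every pig. FDR is the Benjamini-Hochberg value over all genes tested, with a threshold of 0.1. The 95% intervals are normal approximations. FCR slopes that hold the Duroc pigs were not tested, as KLHL30 was chosen from them. Correlations used log2 CPM with a prior count of 2 and 100000 permutations. limma 3.58.1 with voom was an alternative. The fits were tested on simulated counts. Depth was at least 22188911 counts per pig, and counting error weighs most on KLHL34. Replicates are single pigs, and no sample was left out. Sequences were not used here. The value of 1 of the other kelch genes is not reported here.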

Additional observations from a re-analysis of the deposited data

Results flagged for a closer look

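The stranded columns, which the comparisons did not use, hold counts for 3 of the kelch-like genes that the unstranded column lacks in every pig, above the 3 counts that a count of 0 allows. For KLHL34 the sum of the stranded columns exceeded the unstranded count by at least 34 counts per pig and at most 460. For KLHL40 the excess was 206 to 2195 counts, and for KLHL21 it was 226 to 577 counts. The excess of KLHL34 equalled that of CNKSR2 in 41 pigs and that of KLHL40 equalled that of HHATL in 37 pigs.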

How the results depend on the processing

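No paired analysis was possible because the labels give the pigs no replicate numbers that the breeds share. In all, 577 values were recomputed under other settings. The batch count of 3 genes was 2 without a filter and 4 with DESeq2. The breed count of 2 genes became 1 with library size only, with batch as a number and without batch 4. It became 0 without batch 2 or batch 5, and 3 with age left out. The RIN count of 4 became 2 without the 2 pigs of RIN under 7, 2 without batch 2 and 1 without batch 5. It was also 2 with the sum of the stranded columns (chosen after seeing the data). With age left out or without batch 4 it was 3, and with library size only it was 5. The count of 1 pair became 3 when log2 CPM was not adjusted. The slope of KLHL30 on FCR in Duroc, the value it was chosen by, was -0.45 to -0.34 when each pig was left out, which is a description of the same pigs and no sign of stability. The cause of these changes was not tested, except that leaving out a batch also leaves fewer pigs.

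The sign of 10 single-gene values turned, beside the Duroc FCR slopes of genes other than KLHL30, which were not tested and are described above. The breed change of KLHL31 was -0.021 with library size only (0.16 relative to the median of all genes, as with TMM), and that of KLHL24 was 0.058 without batch 3 and 0.12 without batch 5. The RIN slope of KLHL24 was 0.19 with library size only (-0.10 relative to the median) and 0.13 without batch 5, that of KLHL30 was -0.064 with age left out and -0.14 without batch 2, and that of KLHL34 was -0.073 without batch 5. The age slope of KLHL34 was 0.013 per day without batch 2, and its RIN by breed term was 0.097 without the pigs of RIN under 7. None of the 10 was past the threshold in the reported fit.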
